A study of Homo sapiens with 5 samples.

Results

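The SLC25 family are the carriers that move metabolites, nucleotides, cofactors and ions across the inner membrane of mitochondria, and 40 of its genes were measured here. They were chosen by name alone, as every gene of the table whose symbol is SLC25A followed by a number, out of 11976 genes in all. A current table of gene names lists 48 such symbols; SLC25A2, SLC25A18, SLC25A24, SLC25A27, SLC25A31, SLC25A41, SLC25A47 and SLC25A52 were not analysed here. The samples were 5 bulk RNA-seq libraries of HUDEP-2, an immortalised line of erythroid progenitors that came from cord blood: 3 labelled as a knockout of ERF, a transcriptional repressor of the ETS family, and 2 labelled as wild type, with SCR in their titles. Nothing in the labels says whether the knockout libraries come from 1 clone or several, whether the cells called wild type had been through any editing, or whether a group's libraries are separate cultures; p-values thus cover the spread among these libraries, possibly only a technical one.

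Erythroid cells place a heavy load on these carriers, because heme synthesis begins and ends inside mitochondria. Glycine enters through a route that needs SLC25A38, iron enters through mitoferrin 1 (SLC25A37), and mutations of SLC25A38 cause congenital sideroblastic anemia. Other members exchange ADP for ATP, import phosphate, glutathione or folate, and pass reducing equivalents and amino acids between the cytosol and the matrix.

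For each gene the authors' deposited table holds its log2 fold change, its mean log2 CPM (counts scaled to library size) across the libraries, F from a quasi-likelihood test, and p before and after adjustment, but no value per library. Below, ± marks a standard error derived from the fold change and F. The depth of each library is therefore unknown, and no level per group can be given. The name of the deposited comparison holds the word Pre without saying what it means, so no stage of differentiation is assigned here. The header names no direction, so values were multiplied by -1 to make the γ-globin gene HBG2 higher in the libraries labelled knockout, as the series title implies; that this holds for these cells was assumed. HBG2 then has a log2 fold change of 1.88 and is no finding. ERF itself goes against its label under this sign, at 0.89 ± 0.07 per the authors' deposited table (quasi-likelihood adjusted p = 6.44e-06). With the opposite sign every "higher" and "lower" below is exchanged. Erythroid markers were present, with HBB at 12.48 log2 CPM, KLF1 at 8.15, ALAS2 at 7.96 and GATA1 at 7.36 per the authors' deposited table.

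Promoter windows of 6 carriers are shown first, because they hold an exact match to a motif that bears on ERF or on stress signalling and because the values of these genes are taken up below. RefSeq promoter windows (build GRCh38.p14, 250 bases before to 50 after the start of the gene, 300 bases) were found for 34 of the 40 carriers by symbol. Some carriers have several windows, which can overlap, so the 34 hold 43 windows in all. The first motif, CCGGAAGT, is a site of ETS factors such as ERF, and was searched on both strands. It was present in 3 of the 43 windows, each of another carrier, and in 4.14% of all 34961 windows. Capitals mark it in SLC25A17 (chr22:40819297-40819596, minus strand), SLC25A26 (chr3:66220751-66221050, plus strand) and SLC25A46 (chr5:110738757-110739056, plus strand), which holds 2 matches, both on the opposite strand (ACTTCCGG).
SLC25A17: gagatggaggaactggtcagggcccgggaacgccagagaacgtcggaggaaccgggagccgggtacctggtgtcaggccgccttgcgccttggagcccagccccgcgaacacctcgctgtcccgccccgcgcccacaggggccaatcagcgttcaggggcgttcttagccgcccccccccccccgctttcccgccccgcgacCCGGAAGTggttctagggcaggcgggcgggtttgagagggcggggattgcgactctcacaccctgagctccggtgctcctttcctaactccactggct
SLC25A26: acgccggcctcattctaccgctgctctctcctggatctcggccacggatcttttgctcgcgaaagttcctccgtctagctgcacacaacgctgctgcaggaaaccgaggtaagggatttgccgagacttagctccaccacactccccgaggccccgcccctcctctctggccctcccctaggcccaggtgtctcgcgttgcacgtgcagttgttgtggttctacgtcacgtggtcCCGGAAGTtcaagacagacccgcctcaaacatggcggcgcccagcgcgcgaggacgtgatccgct
SLC25A46: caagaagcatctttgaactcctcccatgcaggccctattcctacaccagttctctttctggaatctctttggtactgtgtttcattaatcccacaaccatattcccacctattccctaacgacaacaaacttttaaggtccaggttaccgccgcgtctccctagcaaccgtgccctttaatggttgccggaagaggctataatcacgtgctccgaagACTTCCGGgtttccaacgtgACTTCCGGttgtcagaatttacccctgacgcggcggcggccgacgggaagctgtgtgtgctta

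The second motif, TGACGTCA, is the cAMP response element bound by CREB and ATF family factors, and reads the same on both strands. It was present in 3 of the 43 windows, again of 3 carriers, and in 1.85% of all windows. Capitals mark it in SLC25A33 (chr1:9539215-9539514, plus strand), SLC25A36 (chr3:140941586-140941885, plus strand) and SLC25A25 (chr9:128098257-128098556, plus strand).
SLC25A33: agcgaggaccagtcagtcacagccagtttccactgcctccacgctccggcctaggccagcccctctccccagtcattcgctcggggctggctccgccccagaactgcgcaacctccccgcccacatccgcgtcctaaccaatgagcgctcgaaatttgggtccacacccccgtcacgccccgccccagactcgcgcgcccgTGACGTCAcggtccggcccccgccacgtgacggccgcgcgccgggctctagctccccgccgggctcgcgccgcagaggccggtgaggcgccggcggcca
SLC25A36: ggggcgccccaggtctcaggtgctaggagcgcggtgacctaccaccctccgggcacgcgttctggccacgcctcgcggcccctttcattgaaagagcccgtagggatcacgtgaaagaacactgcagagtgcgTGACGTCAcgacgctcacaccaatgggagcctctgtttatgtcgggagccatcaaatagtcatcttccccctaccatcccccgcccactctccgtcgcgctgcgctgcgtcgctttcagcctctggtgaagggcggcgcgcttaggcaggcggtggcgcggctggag
SLC25A25: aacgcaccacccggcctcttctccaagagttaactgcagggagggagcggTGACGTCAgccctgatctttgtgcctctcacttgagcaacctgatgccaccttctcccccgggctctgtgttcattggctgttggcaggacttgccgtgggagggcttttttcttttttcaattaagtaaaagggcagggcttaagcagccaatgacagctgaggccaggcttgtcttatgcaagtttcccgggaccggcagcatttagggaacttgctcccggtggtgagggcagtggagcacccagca

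The 3 carriers with the ETS motif had log2 fold changes close to 0 per the authors' deposited table: -0.03 for SLC25A17, -0.01 for SLC25A26 and 0.08 for SLC25A46, none past the threshold. All 3 with the cAMP response element passed it, as did 50.9% of all genes, and in both directions, at 0.48 for SLC25A33, -0.53 for SLC25A36 and -0.30 for SLC25A25 per the authors' deposited table. Among further motifs, TGATGNAA, the core of the element bound by ATF4 with C/EBP factors, was present in 1 window, that of SLC25A11, and in 3.62% of all windows. The GATA site AGATAA was present in the window of SLC25A4, in 2 overlapping windows of SLC25A26 other than the one printed, and in 10.3% of all windows. None of these motifs contains another. A match is a description of these letters and not evidence of binding, and the motifs were chosen with the fold changes known.

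As a family, the carriers moved in both directions. By the authors' deposited table, 23 of the 40 (57.5%) had an adjusted p below 0.05, against 50.9% of all genes; 11 were higher (27.5%, against 24.9% of all genes) and 12 lower (30.0%, against 25.9%) in the libraries labelled knockout. These shares are near the background. The median log2 fold change was -0.04 over the carriers and -0.00 over all genes, and the median absolute log2 fold change was 0.28 over the carriers and 0.21 over all genes. Changes of at least 2-fold past the threshold were found for 2 carriers, SLC25A29 and SLC25A48, and for 3.27% of all genes. The median standard error was 0.07. In bulk RNA, fewer cells of a type and less RNA per cell cannot be told apart. Of the 40 carriers, 11 share exonic bases with another gene of the table, among them SLC25A5, SLC25A11, SLC25A12, SLC25A21, SLC25A25, SLC25A26, SLC25A30, SLC25A32, SLC25A40 and SLC25A48.

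**Figure D1:**
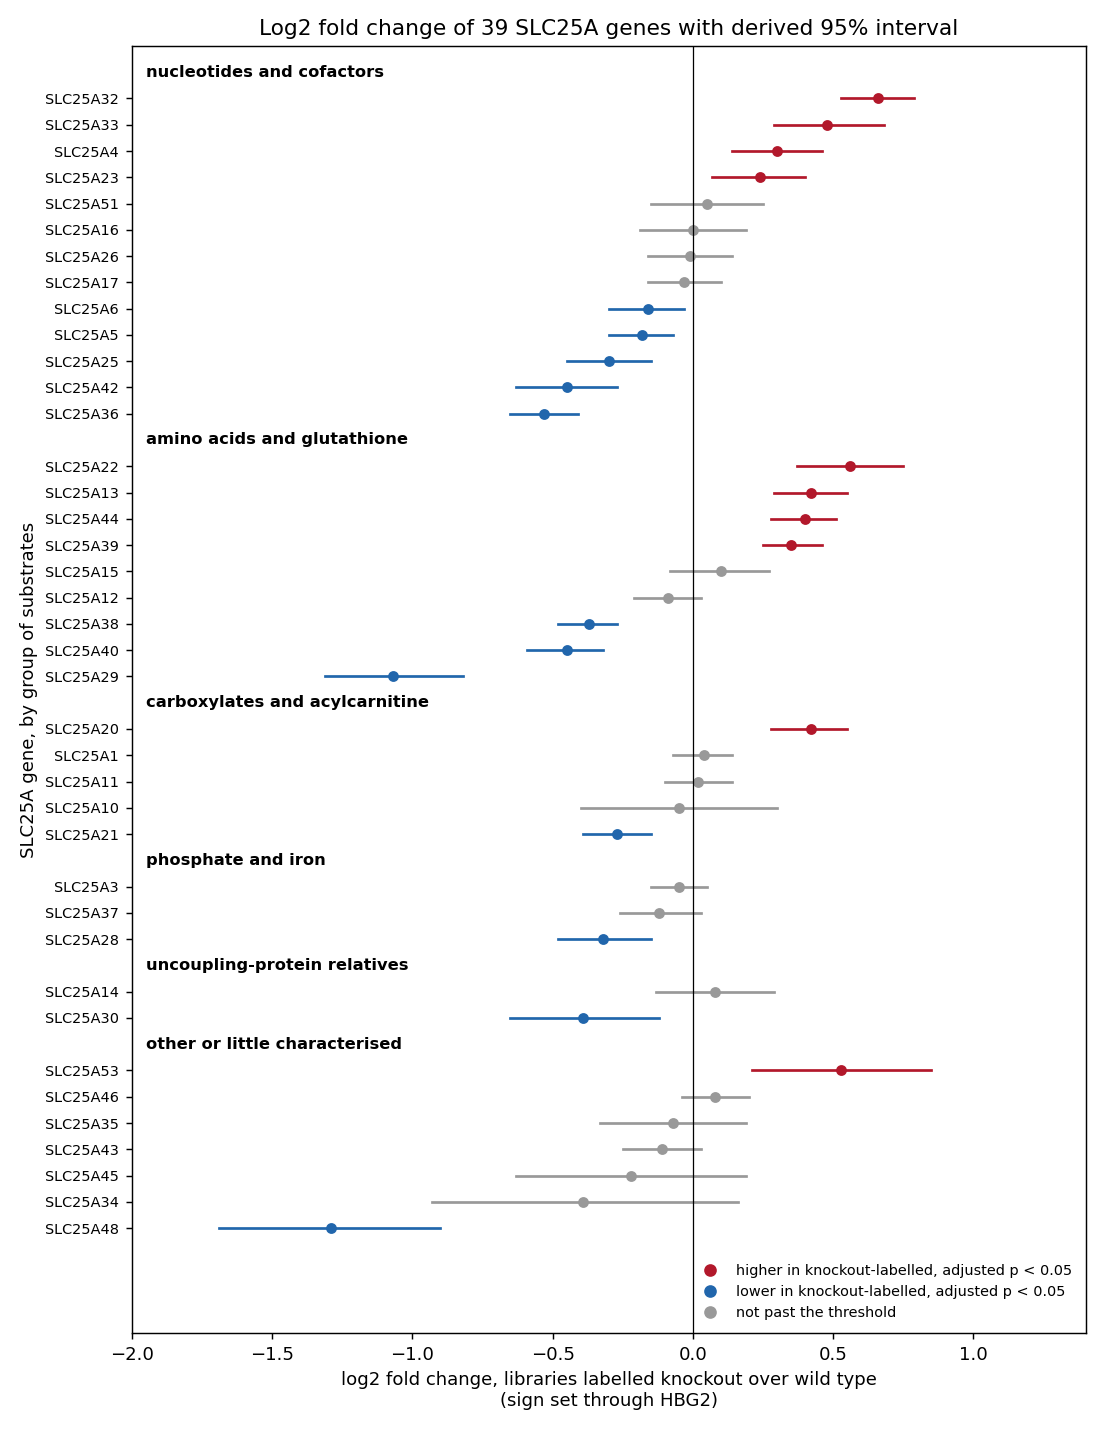
Log2 fold change (x axis, libraries labelled knockout over wild type, sign set through HBG2) of 39 SLC25A genes (y axis, grouped by substrate), as points with derived 95% intervals as lines. Red points are the 10 higher genes drawn, blue the 12 lower and grey the 17 not called; SLC25A48 at -1.29 and SLC25A29 at -1.07 lie farthest left, and SLC25A32 at 0.66 farthest right of those drawn.

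Of the carriers that serve glycine and iron import, 2 were lower and 1 was not called. Among all genes, 25.9% were lower and 50.9% were called in either direction. These carriers were put together by role and are too few to be read as a group. SLC25A38 (ENSG00000144659, chromosome 3), the carrier linked to glycine import for heme, was lower at -0.37 ± 0.05 with a derived 95% interval of -0.48 to -0.27, at 5.93 log2 CPM per the authors' deposited table (F = 67.8, quasi-likelihood adjusted p = 9.44e-05). A pseudogene, SLC25A38P1, matches 39.5% of its longest coding transcript at 95% identity or more, so reads from that stretch are uncertain. Mitoferrin 1, SLC25A37 (ENSG00000147454, chromosome 8), brings iron to the ferrochelatase of erythroid cells and had the highest log2 CPM of the family, 9.49. Its log2 fold change was -0.12 ± 0.07 with a derived interval of -0.26 to 0.03 per the authors' deposited table (F = 3.20, quasi-likelihood adjusted p = 0.159), so a change was not called. Mitoferrin 2, SLC25A28, which serves iron import in cells of other types, was lower at -0.32 ± 0.08 per the authors' deposited table (quasi-likelihood adjusted p = 0.0056). The intervals of both mitoferrins overlap, and the difference between them was not tested.

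Levels of different genes can be set side by side only per length. Per kilobase of the longest coding transcript in GENCODE release 29, the level was 7.54 log2 CPM per kilobase for SLC25A5, 7.44 for SLC25A6, 7.22 for SLC25A37, 6.66 for SLC25A39 and 6.04 for SLC25A3. Per kilobase of all annotated exons, SLC25A6 at 7.37 stood before SLC25A5 at 7.31, and the other 3 kept their order. These 5 carriers were the highest of the family under either length. They supply ATP, phosphate, iron and glutathione transport. The lengths come from a newer genome build than the one the authors used.

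**Figure D2:**
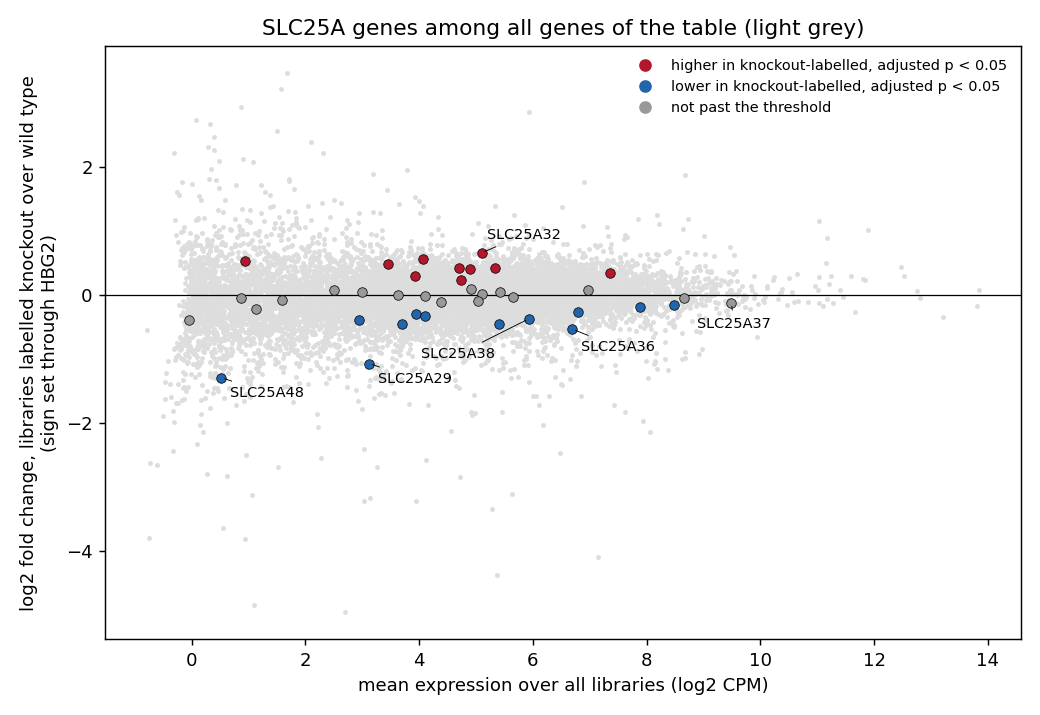
Mean expression over all libraries (x axis, log2 CPM) against log2 fold change (y axis, libraries labelled knockout over wild type, sign set through HBG2) for all 11976 genes in light grey and 39 SLC25A genes in colour. The carriers spread from -0.05 to 9.49 log2 CPM, and SLC25A29 and SLC25A48, the 2 changed at least 2-fold, both lie below the family's median of 4.55 log2 CPM.

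Of 14 carriers of nucleotides and cofactors, 5 were higher (35.7%, against 24.9% of all genes), 5 lower (35.7%, against 25.9%) and 4 not called, with a median of -0.00.

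SLC25A32 (ENSG00000164933, chromosome 8), the carrier linked to folate and FAD in mitochondria, was 1.58-fold higher. Its log2 fold change was 0.66 ± 0.06 with a derived interval of 0.53 to 0.79, at 5.10 log2 CPM per the authors' deposited table (F = 126, quasi-likelihood adjusted p = 1.29e-05). DCAF13, a ribosome assembly factor whose exons overlap those of SLC25A32 on the other strand, was also higher, at 0.36 and 6.85 log2 CPM per the authors' deposited table. Whether reads were counted by strand is not stated by the labels, so those from the bases shared with DCAF13 cannot be told apart. AC012213.5, which was not among the measured genes, shares exonic bases with SLC25A32 on the same strand.

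The carriers of pyrimidine nucleotides parted. SLC25A36 (ENSG00000114120, chromosome 3) was lower, at -0.53 ± 0.05 with a derived interval of -0.65 to -0.41, at 6.69 log2 CPM per the authors' deposited table (F = 94.3, quasi-likelihood adjusted p = 3.38e-05). Its relative SLC25A33 was higher, at 0.48 ± 0.09 and 3.45 log2 CPM per the authors' deposited table (quasi-likelihood adjusted p = 0.00123). Both hold the cAMP response element printed above. A copy elsewhere in the genome matches 24.9% of the SLC25A33 transcript, so its level is uncertain to that extent.

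The ADP/ATP carriers, which export the ATP made by oxidative phosphorylation, also parted. SLC25A4, the isoform best known from heart and muscle, was higher at 0.30 ± 0.07 and 3.92 log2 CPM per the authors' deposited table (quasi-likelihood adjusted p = 0.00613). The widely expressed isoforms SLC25A5 and SLC25A6 were lower by small amounts, at -0.18 and -0.16, with 7.89 and 8.48 log2 CPM per the authors' deposited table. Both calls were lost at an adjusted p threshold of 0.01, as was that of SLC25A23 below. Of the ATP-Mg/phosphate carriers, which are regulated by calcium and set the pool of adenine nucleotides in the matrix, SLC25A23 was higher at 0.24 ± 0.07 and SLC25A25 lower at -0.30 ± 0.07 per the authors' deposited table. The exons of SLC25A25 overlap those of the measured genes NAIF1 and SLC25A25-AS1.

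SLC25A42, a carrier of coenzyme A, was lower at -0.45 ± 0.08 per the authors' deposited table (quasi-likelihood adjusted p = 0.00107). SLC25A16, also linked to coenzyme A, stood at -0.00 there, with an interval of -0.19 to 0.19. The remaining members not called were the NAD carrier SLC25A51 (0.05), the peroxisomal carrier SLC25A17 (-0.03) and the S-adenosylmethionine carrier SLC25A26 (-0.01) per the authors' deposited table. For SLC25A51, copies including SLC25A52 match 67.4% of the transcript, so its value is uncertain.

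Among carriers of amino acids and glutathione, 4 of 9 were higher (44.4%, against 24.9% of all genes), 3 lower (33.3%, against 25.9%) and 2 not called, with a median of 0.10. SLC25A29 (ENSG00000197119, chromosome 14), a carrier of lysine and arginine, had the largest change of the family after SLC25A48. It was 2.09-fold lower, at -1.07 ± 0.11 with a derived interval of -1.31 to -0.82, at 3.12 log2 CPM per the authors' deposited table (F = 91.3, quasi-likelihood adjusted p = 3.73e-05). SLC25A29 shares exonic bases with AL157871.6 on the same strand and AL157871.1 on the other, neither of which was among the measured genes. Over all genes, 2.71% had a larger absolute fold change than SLC25A29. Its relative SLC25A15, the ornithine carrier of the urea cycle, stood at 0.10 and was not called per the authors' deposited table (quasi-likelihood adjusted p = 0.339).

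SLC25A22 (ENSG00000177542, chromosome 11), which imports glutamate with a proton, was 1.47-fold higher, at 0.56 ± 0.09 with a derived interval of 0.37 to 0.75, at 4.07 log2 CPM per the authors' deposited table (F = 40.8, quasi-likelihood adjusted p = 0.000465). Its exons overlap those of PANO1 on the other strand, which was not among the measured genes. SLC25A13, or citrin, an aspartate/glutamate carrier of the malate-aspartate shuttle, was higher at 0.42 ± 0.06 per the authors' deposited table (quasi-likelihood adjusted p = 0.000222). The other aspartate/glutamate carrier, SLC25A12, stood at -0.09 with an interval of -0.21 to 0.03 there, and the difference from SLC25A13 was not tested. SLC25A44, which imports branched-chain amino acids, was higher at 0.40 ± 0.05 per the authors' deposited table (quasi-likelihood adjusted p = 0.000167).

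The paralogs linked to glutathione import moved in opposite directions. SLC25A39, abundant in erythroid cells and known from zebrafish to be needed for heme synthesis, was 1.28-fold higher, at 0.35 ± 0.05 and 7.35 log2 CPM per the authors' deposited table (quasi-likelihood adjusted p = 0.000184). SLC25A40 was lower, at -0.45 ± 0.06 and 5.41 log2 CPM per the authors' deposited table (quasi-likelihood adjusted p = 0.000202). DBF4, whose exons overlap those of SLC25A40 on the other strand, was higher at 0.20 per the authors' deposited table, the opposite sign.

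**Figure D3:**
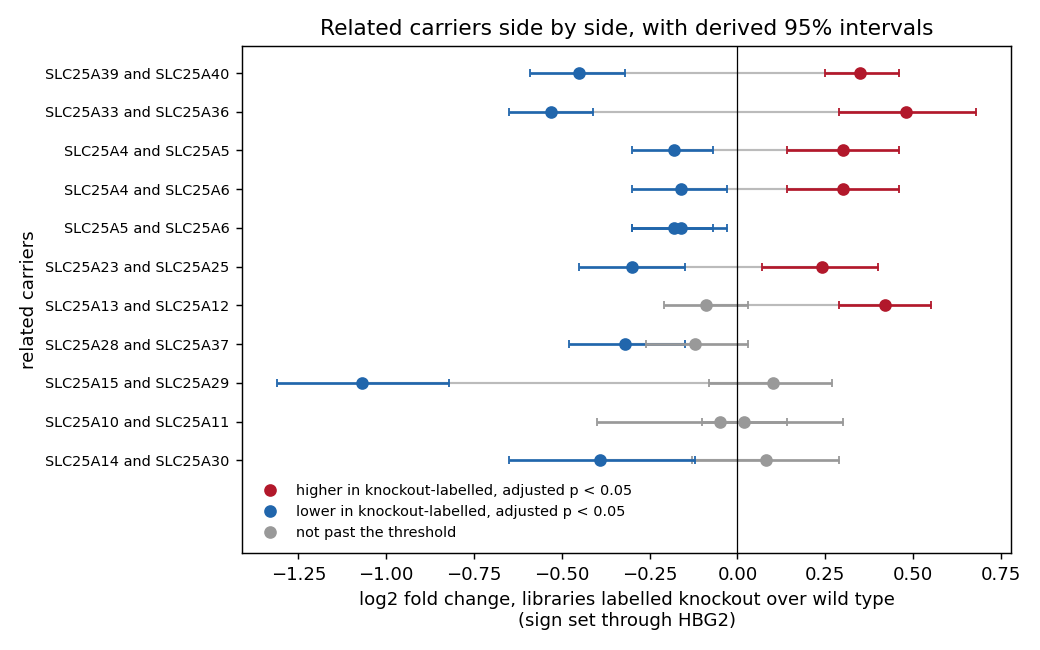
Log2 fold change (x axis, libraries labelled knockout over wild type, sign set through HBG2) of related carriers, 1 pair per row (y axis), as points with derived 95% intervals. In 5 of the 11 pairs drawn both genes passed the threshold with opposite signs: SLC25A39 with SLC25A40, SLC25A33 with SLC25A36, SLC25A4 with SLC25A5 and with SLC25A6, and SLC25A23 with SLC25A25. In 1 pair, SLC25A5 with SLC25A6, both passed it with the same sign.

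These splits do not depend on which group is on top of the fold change, since exchanging the sign turns both genes of a pair. They do depend on the threshold, since SLC25A5, SLC25A6 and SLC25A23 lose their calls at an adjusted p threshold of 0.01. Only SLC25A39 with SLC25A40 and SLC25A33 with SLC25A36 were then still called in opposite directions. The 11 pairs were put together by related substrate or sequence with the values known, and 3 of them are drawn from SLC25A4, SLC25A5 and SLC25A6, so their count is a description.

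Of 5 carriers of carboxylates and acylcarnitine, 1 was higher, 1 lower and 3 not called (40.0% called, against 50.9% of all genes), with a median of 0.02. SLC25A20, which brings acylcarnitines to fatty acid oxidation, was higher at 0.42 ± 0.06 per the authors' deposited table (quasi-likelihood adjusted p = 0.000255). SLC25A21, a carrier of oxoadipate and 2-oxoglutarate, was lower at -0.27 ± 0.05 and 6.79 log2 CPM per the authors' deposited table (quasi-likelihood adjusted p = 0.00209). The citrate carrier SLC25A1 stood at 0.04, the 2-oxoglutarate/malate carrier SLC25A11 at 0.02 and the dicarboxylate carrier SLC25A10 at -0.05 per the authors' deposited table. The interval was -0.07 to 0.14 for SLC25A1 and -0.40 to 0.30 for SLC25A10, which lay at only 0.87 log2 CPM. The phosphate carrier SLC25A3, needed for ATP synthesis, stood at -0.05 with an interval of -0.15 to 0.05 and 8.65 log2 CPM per the authors' deposited table.

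The uncoupling-protein relatives and the other or little characterised members, SLC25A43 and SLC25A46 apart, lay at 2.94 log2 CPM or below. SLC25A30 was lower at -0.39 ± 0.12 per the authors' deposited table (quasi-likelihood adjusted p = 0.0198), and SLC25A14 stood at 0.08. SLC25A48 (ENSG00000145832, chromosome 5) was 2.45-fold lower, at -1.29 ± 0.18 with a derived interval of -1.69 to -0.90, at 0.52 log2 CPM per the authors' deposited table (F = 52.4, quasi-likelihood adjusted p = 0.000213). Of 2 other genes on the same strand that share exonic bases with it, AC114296.1 was also lower, at -0.59, and AC034206.1 stood at -0.03 per the authors' deposited table, so the share of each in these few reads is uncertain. SLC25A53 (ENSG00000176274, chromosome X) was 1.45-fold higher, at 0.53 ± 0.14 with a derived interval of 0.21 to 0.85, at 0.94 log2 CPM per the authors' deposited table (F = 13.6, quasi-likelihood adjusted p = 0.0109). A copy matches 14.8% of its transcript. SLC25A46, a protein of the outer membrane that acts in mitochondrial dynamics, was not called at 0.08. Nor were SLC25A35 at -0.07, SLC25A43 at -0.11, SLC25A45 at -0.22 and SLC25A34 at -0.39 per the authors' deposited table.

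Family members that carry other symbols moved by small amounts. UCP2, an uncoupling protein, was lower at -0.30 ± 0.05 and 8.29 log2 CPM per the authors' deposited table (quasi-likelihood adjusted p = 0.00104). MTCH1 at 0.23 and MTCH2 at 0.14, divergent relatives in the outer membrane, were higher, and UCP3 at 0.16 was not called per the authors' deposited table. The call of MTCH2 was lost when fold changes were shifted by the median of the genes at 5 log2 CPM or more.

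Carrier proteins are made in the cytosol, recognised at the outer membrane, chaperoned across the space between the membranes and inserted by the TIM22 complex. Of 13 measured genes of this route, 8 were higher (61.5%, against 24.9% of all genes) and 3 lower (23.1%, against 25.9%), with a median of 0.29. In all, 84.6% were called, against 50.9% of all genes. The small chaperone TIMM8A was 1.72-fold higher, at 0.78 ± 0.07 per the authors' deposited table (quasi-likelihood adjusted p = 2.07e-05). The insertase TIMM22 stood at 0.42, the chaperone TIMM10 at 0.46, the receptor TOMM22 at 0.49 and the pore TOMM40 at 0.39 per the authors' deposited table, all higher. TIMM9, the partner of TIMM10 in the chaperone that carries these precursors, was lower at -0.52 ± 0.06 per the authors' deposited table (quasi-likelihood adjusted p = 9.92e-05). The receptors TOMM70A, which recognises carrier precursors, and TOMM20 were lower, at -0.18 and -0.22 per the authors' deposited table.

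**Figure D4:**
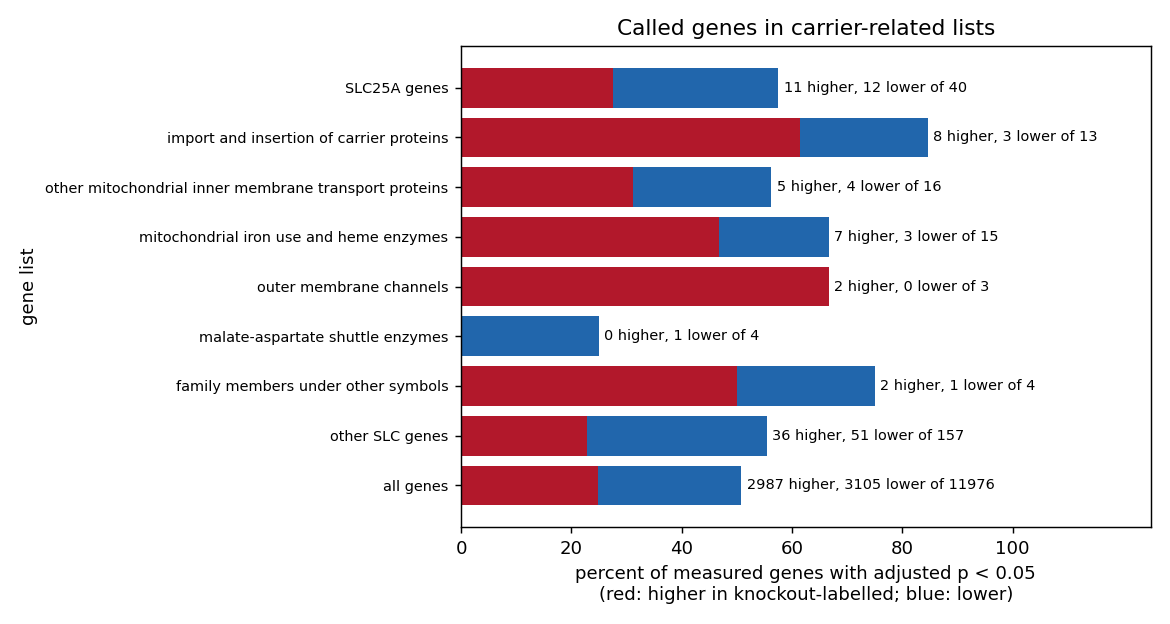
Percent of measured genes (x axis) with an adjusted p below 0.05 in each gene list (y axis), red for higher and blue for lower in the libraries labelled knockout, with counts beside the bars. The SLC25A genes, with 57.5% called, lie near all genes with 50.9%, while the list of carrier import has 84.6%. Of the heme enzymes, the bar of mitochondrial iron use holds only ALAS1, ALAS2 and ferrochelatase.

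Genes that work with the carriers gave a mixed picture. Of 4 enzymes of the malate-aspartate shuttle, the cytosolic transaminase GOT1 was lower, at -0.61 ± 0.05 per the authors' deposited table (quasi-likelihood adjusted p = 4.28e-06), and GOT2 (-0.03), MDH1 (-0.01) and MDH2 (0.16) were not called. Of 15 genes, most of them of mitochondrial iron use, 7 were higher (46.7%, against 24.9% of all genes) and 3 lower (66.7% called in all, against 50.9%), with a median of 0.19. The only heme enzymes of this list are ALAS1, ALAS2 and ferrochelatase. ALAD at -0.56 and PPOX at -0.38, both lower per the authors' deposited table, are outside it, as are others not given here. These counts thus do not describe heme synthesis. ISCA1, of iron-sulfur cluster assembly, was higher at 0.37, ALAS1 at 0.33 and the erythroid marker ALAS2 at 0.22 per the authors' deposited table. The call of ALAS2 was lost at an adjusted p threshold of 0.01, as was that of ABCB10 below. Ferrochelatase, FECH, was lower at -0.31 per the authors' deposited table. ABCB10, an inner membrane transporter known from mouse to bind mitoferrin 1, was lower at -0.31, and TMEM14C, known from mouse to take part in the transport of the porphyrin intermediate in heme synthesis, at -0.34 per the authors' deposited table. They belong to a list of 16 other transport proteins of the inner membrane, with 5 higher, 4 lower (56.2% called, against 50.9% of all genes) and a median of -0.07. Shifting the fold changes of every gene by the median of the genes at 5 log2 CPM or more gave 3 higher and 6 lower in this list. Over all genes, 6098 were then called, against 6092 before, and their split by direction after the shift was not counted. ABCB10 and TMEM14C lay at one end of the list, and LETM1, a cation exchanger, at 0.48 and the serine transporter SFXN1 at 0.36 at the other per the authors' deposited table.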

How the data were processed

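RNA was extracted from HUDEP-2 cells with Trizol and made into Illumina TruSeq libraries, per the labels' protocols. The submitters' processing notes name HTSeq, SAMtools, TopHat2 2.0.4, Cuffdiff, the build hg19/GRCh37 and edgeR 2.6.12, without their roles; they state neither filter, normalization nor strand, nor whether that version made the table. The deposited values, named by their column headers, are log2 fold change, mean log2 CPM, an F score, p-value and adjusted p-value, for 11979 rows. The 3 rows that name no gene hold 21.5% of the CPM and were left out of all counts. Values per sample fill 0 of its columns, and no model was refitted. The deposited adjusted p-values differed by at most 0.676% from Benjamini-Hochberg values computed from the deposited p-values. A gene was called at a deposited adjusted p below 0.05.

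A standard error was taken as |log2 fold change| over the root of F. Its 95% interval came from a t distribution with 10.3 degrees of freedom, the number implied by F and p. The arithmetic was checked on fold changes simulated under these same assumptions. No counts were simulated, so that check cannot show that the intervals hold for the deposited fit. Standard errors and intervals are approximations, and the spread behind them is partly shared across genes, since 5 libraries leave fewer degrees of freedom. Full statistics are given for called genes with an absolute log2 fold change of at least 0.5 and for SLC25A37 and SLC25A38; other lists are named by the same size, or by their largest changes and members of known role chosen after their values were seen. The genes and lists were chosen with earlier results of these data known. Exon overlaps (19 of 40 carriers, 11 with a gene in the table) and copies (95% identity over 300 bases, BLAST 2.17.0, 4 carriers) come from GENCODE 29. Carriers were matched to it by identifier for 39 and by symbol for 1. Genes annotated in the pseudoautosomal part of chromosome Y were left out of the search. Copies there of carriers on chromosome X were thus not counted. Figures and tables were made with Python 3.11.15, pandas 2.3.3 and scipy 1.17.1. Of the 40 carriers, 1 is included in the counts and not reported here by name.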

Additional observations from a re-analysis of the deposited data

How the results depend on the processing

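Of the 40 carriers, all kept their direction and their side of the threshold when p-values were adjusted without the rows that name no gene. At an adjusted p threshold of 0.01, 35 did so, and SLC25A5, SLC25A6, SLC25A23, SLC25A30 and SLC25A53 were no longer called. With a minimum of 1 log2 CPM 36 carriers were left, and all of these kept their call. The called carriers SLC25A48 (0.52 log2 CPM) and SLC25A53 (0.94) fell below that minimum. Subtracting the median of the genes at 5 log2 CPM or more, which was 0.03, kept 39 and turned SLC25A11, which is not called, to -0.02; AGK, of the import list and not called, turned to -0.00, by the construction of that shift. With a minimum of 1.5-fold, 2 carriers were higher and 2 lower. The share of all genes under that minimum was not counted, so this describes the carriers only. In another setting, chosen after seeing the data, carriers that overlap a measured gene or for which the search found a near-identical copy were left out. Of the 25 carriers left, 7 were higher and 5 lower, beside 24.9% higher and 25.9% lower of all genes. The 15 left out held 4 of the higher and 7 of the lower ones, and the cause was not tested. With the sign as deposited, the counts become 12 higher and 11 lower and the median 0.04. No paired analysis was possible because the table holds no values per library; for the same reason leaving out each replicate and the DESeq2 normalization were not run. Depth per library is unknown, and the widest interval, -0.93 to 0.16, belongs to SLC25A34 at -0.05 log2 CPM.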

Other observations

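The mitochondrial outer membrane channels, through which metabolites reach the inner membrane carriers, were measured for 3 genes. VDAC1 was higher at 0.39 ± 0.05 and VDAC3 higher at 0.33 ± 0.05, whereas VDAC2 stood at 0.04 and was not called per the authors' deposited table. Solute carriers of the other SLC families numbered 157, of which 36 were higher and 51 lower (55.4% called, against 57.5% of the SLC25A genes and 50.9% of all genes), with a median log2 fold change of -0.07.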
